A study of Mus musculus with 9 samples.

Results

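Nfat5, Hspa4l, Slc38a2, Slc6a6, Slc5a3 and Akr1b3 are genes of the response of mammalian cells to hypertonic stress. They were taken by symbol from the raw count table, so 6 of its 55011 genes are described here, and all 6 were among the 10235 genes that passed the filter on low counts. The libraries came from CD8 T cells of wild-type mouse spleen, the cytotoxic arm of the lymphocytes, and the labels give no age or strain. Naive cells were stimulated for 6 h by plate-bound antibodies at 4 µg/mL against CD28, a costimulatory receptor, and CD3, the signalling chains of the antigen receptor. The control group received no compound, and the treated groups were given D-2HG or L-2HG, each at 20 mM, when stimulation began, with 3 libraries in each group. D-2HG and L-2HG are mirror-image forms of 2-hydroxyglutarate that differ in configuration at the carbon carrying the hydroxyl group, and D-2HG is the form made by mutant isocitrate dehydrogenases in some tumours. No group analysed here received another solute at that concentration. In comparisons with control, the compound and the added solute therefore cannot be told apart, whereas D-2HG against L-2HG compares equal doses.

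When the medium is hypertonic, water leaves the cell. The transcription factor NFAT5, also called TonEBP, then induces transporters and enzymes that fill the cell with organic osmolytes, small solutes that restore volume without disturbing proteins. Lymphocytes depend on NFAT5 for growth under such conditions, and NFAT5 differs from the NFATc factors of T cell activation in lacking their docking region for calcineurin. Among the classical targets are the transporters of taurine and myo-inositol and aldose reductase, which makes sorbitol, and the chaperone HSPA4L was first found as an osmotic stress protein.

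The response of the 6 genes was uneven. Hspa4l rose 4.17-fold with D-2HG and 1.91-fold with L-2HG, and Slc38a2 rose 3.30-fold and 2.01-fold. Slc6a6 rose about equally with both compounds, by 1.57-fold and 1.51-fold. Nfat5 passed the test with L-2HG, at 1.57-fold, and not with D-2HG. The classical targets Slc5a3 and Akr1b3 passed in neither comparison with control, and the mean of Akr1b3 lay below control with both compounds. The estimates for Slc5a3, 1.47-fold and 1.38-fold, were close to those of Slc6a6 but had wide intervals. Of 21 alternative analyses, the Slc6a6 calls held in 13 with D-2HG and 7 with L-2HG, and the Nfat5 call in 6. Akr1b3 passed as lower in 2 of them with D-2HG and in 6 with L-2HG. Part of this unevenness is thus a matter of the threshold.

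A gene was called at an adjusted p under 0.05 in edgeR's quasi-likelihood F test, where p-values were adjusted by Benjamini and Hochberg's method across the 10235 genes. With D-2HG 3 of the 6 genes were called higher and 0 lower, where 11.8% of all tested genes were called higher and 10.5% lower. With L-2HG 4 were called higher and 0 lower, where 9.41% of all tested genes were called higher and 8.3% lower. DESeq2 called 3 of the 6 higher with D-2HG and 2 with L-2HG. EdgeR with DESeq2's size factors also called 3 and 2 higher, and limma-voom 4 and 4. At an unadjusted p under 0.05, 0 of the 6 were lower with D-2HG and 1 with L-2HG, DESeq2 called 0 and 1 lower, and limma-voom called 1 and 1, the gene in each case being Akr1b3. The median log2 fold change of the 6 was 0.60 with D-2HG and 0.62 with L-2HG, beside medians over all tested genes of 0.04 and 0.05. Because the 6 genes were chosen with earlier results of these data known, these shares and medians are descriptions and no test of the set. Both comparisons use the same 3 control libraries. Of all calls with D-2HG 52.9% were higher, which became 43.8% with DESeq2's size factors and 68.6% with library totals alone, and with L-2HG 53.1% became 36.2% and 74.3%. Between the compounds, 1 of the 6 genes was called higher with D-2HG and 0 lower, where 0.0489% of all tested genes were higher and 0.254% lower. Whether a replicate is a mouse or a culture of its own is not labelled, so p-values measure only the spread between these libraries.

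**Figure D1:**
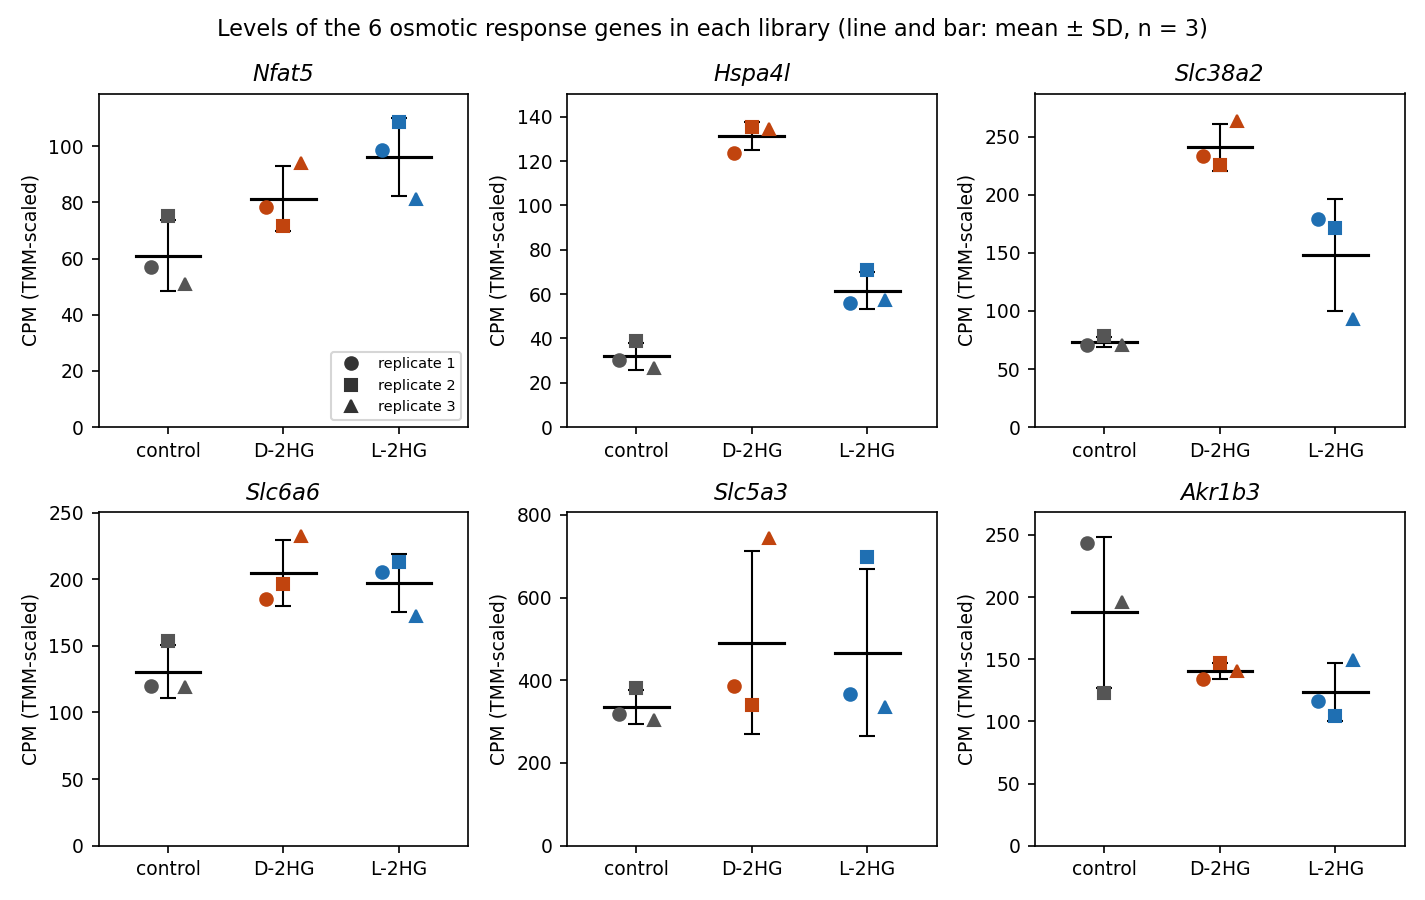
Level of each of the 6 genes in the 9 libraries, in CPM, counts per 1000000 of the TMM-scaled library total (vertical axis, from 0), by group (horizontal axis). Symbols mark replicates 1 to 3 and lines and bars give the mean and SD. Hspa4l and Slc38a2 are separated by group, whereas Slc5a3 is high in 1 library of each treated group.

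Gene counts per library totalled 562627 (L-2HG replicate 2) to 5731885 (control replicate 3). Levels are given in CPM, counts per 1000000 of the library total after scaling by TMM. The share of counts in Gm10800 and Gm10801, predicted genes that hold satellite repeat sequence, was 0.91% to 5.35% in controls, 3.79% to 17.0% with D-2HG and 6.71% to 24.4% with L-2HG, and was highest in D-2HG replicate 3 and L-2HG replicate 2. All 5 markers of CD8 T cells (Cd8a, Cd8b1, Cd3e, Cd3d, Trac) were tested, with a summed level of 2024 to 4333 CPM over the 9 libraries. All 5 had negative log2 fold changes with both compounds, and 3 were called lower with D-2HG and 1 with L-2HG. The 5 B cell markers, of which 2 passed the count filter and 1 was called lower with each compound, summed to 175 to 317 CPM in controls, 134 to 135 with D-2HG and 134 to 195 with L-2HG. Markers of CD4 T cells, NK cells, neutrophils, erythroid cells and platelets summed to 4.36 CPM or less in every library. Macrophage and monocyte markers summed to 4.11 to 9.51 CPM. The 4 dendritic cell markers summed to 5.21 to 8.72 CPM in controls, 10.7 to 19.9 with D-2HG and 14.6 to 22.8 with L-2HG. Most of that sum was Zbtb46, with means of 6.13, 10.1 and 13.3 CPM. It was the only 1 of the 4 tested and was called higher with L-2HG. Itgax, Flt3 and Siglech averaged 2.23 CPM or less in each group. A background from genomic DNA was estimated for each gene from reads per base in sensory receptor genes, which are normally expressed in sensory neurons, and was densest in L-2HG replicate 3. The part of these marker, satellite and background differences in the results was not tested, and in such bulk samples fewer cells of a type and less RNA per cell cannot be told apart.

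Per kilobase of exon, the control levels ran from Hspa4l at 2.705 ± 0.53 CPM per kb (SD, n = 3) and Nfat5 at 3.32 ± 0.69 through Slc38a2 at 8.28 ± 0.48, Slc6a6 at 15.5 ± 2.35 and Akr1b3 at 22.4 ± 7.23 to Slc5a3 at 30.6 ± 3.78. The libraries of Hspa4l and Nfat5 overlapped in this order, as did those of Slc6a6 and Akr1b3 and those of Akr1b3 and Slc5a3. With D-2HG Hspa4l reached 11.1 ± 0.55 CPM per kb, above Nfat5 at 4.42 ± 0.63 in every library. With L-2HG both stood at 5.2 CPM per kb on average and overlapped, with SDs of 0.70 for Hspa4l and 0.75 for Nfat5. Slc38a2 rose with D-2HG to 27.2 ± 2.28 CPM per kb, a level that overlapped that of Slc6a6 at 24.2 ± 2.93. On this scale Slc5a3 remained the gene with the highest mean of the 6 in all 3 groups. The length used is that of all annotated exons of a gene together, such as 8384 bases for Akr1b3, whose coding sequence has 948. Where the transcripts present are shorter, the level per kb is understated, so the order of the genes depends on this choice of length.

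Nfat5 (ENSMUSG00000003847) encodes the transcription factor of the response and lies on the plus strand of chromosome 8, from 107293470 to 107379517 in GRCm38 (GENCODE M21), with 18378 bases of exon. Control replicates 1 to 3 had 57.1, 75.1 and 50.9 CPM. The D-2HG libraries had 78.4, 71.5 and 93.9 CPM, and the L-2HG libraries had 98.7, 109 and 81.3 CPM. All L-2HG libraries lay above all controls, whereas D-2HG replicate 2 lay below control replicate 2. The log2 fold change was 0.65 ± 0.22 (SE) with L-2HG, at an edgeR adjusted p of 0.0463, and 0.42 ± 0.21 with D-2HG, at 0.150. The direct comparison of D-2HG with L-2HG gave -0.23, with a 95% interval from -0.68 to 0.22 and an adjusted p of 0.898, so that no difference between the compounds was shown for this gene.

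The call of Nfat5 with L-2HG was close to the threshold and was not made by DESeq2 (adjusted p 0.0745). It was lost on leaving out control replicate 1 (adjusted p 0.144) or 3 (0.219), L-2HG replicate 1 (0.152) or 2 (0.115), or D-2HG replicate 1 (0.0759), 2 (0.0681) or 3 (0.0599). The estimated genomic background was 12.8% of the Nfat5 counts in L-2HG replicate 3 and 4.51% or less in the other libraries, and after its subtraction the L-2HG change was 0.70 with an adjusted p of 0.0648. Without control replicate 2, the highest control, the change with D-2HG also passed, with a log2 fold change of 0.57 and an adjusted p of 0.0322.

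Members of the calcineurin-binding NFATc group did not pass in any comparison. Nfatc1, which stimulated T cells induce, averaged 161 ± 5.92 CPM in controls, and in treated cells 153 ± 8.29 (D-2HG) and 174 ± 8.55 CPM (L-2HG, SD, n = 3). Nfatc3 averaged 63.6 ± 3.37, 53.5 ± 1.18 and 82.7 ± 33.2 CPM, the last with a wide spread. Nfatc2 was the lowest of them, at 12.3 ± 2.26, 8.93 ± 3.24 and 17.2 ± 9.42 CPM.

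Hspa4l (ENSMUSG00000025757) encodes an HSP110-type chaperone that serves as a nucleotide exchange factor of HSP70. The gene lies on the plus strand of chromosome 3, from 40744495 to 40796103, with 11792 bases of exon. The authors' annotated table pairs the symbol with a second identifier, ENSMUSG00000115951, with the same values. Its relatives Hspa4 and Hsph1 share its domain layout, and the first 60 coding bases of one transcript of each, from GENCODE M21, show how far the genes have diverged. Capitals mark bases that differ from Hspa4l.

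Hspa4l: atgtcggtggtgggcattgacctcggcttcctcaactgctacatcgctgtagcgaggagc
Hspa4: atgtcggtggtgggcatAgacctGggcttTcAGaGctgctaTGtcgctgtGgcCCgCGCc
Hsph1: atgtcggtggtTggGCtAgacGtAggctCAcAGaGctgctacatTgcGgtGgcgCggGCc

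Hspa4 differed from Hspa4l at 14 of these 60 bases and Hsph1 at 17. Over the whole coding sequences the longest stretch identical to Hspa4l was 20 bases in Hspa4 and 26 bases in Hsph1. Of 50-base stretches in annotated Hspa4l transcripts, 0.356% also occurred in another gene.

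Hspa4l stood at 30.3, 38.8 and 26.6 CPM in control replicates 1 to 3. The D-2HG libraries had 124, 135 and 135 CPM and the L-2HG libraries 55.9, 71.1 and 57.6 CPM. No group overlapped another: every L-2HG library lay above every control and below every D-2HG library. The log2 fold change with D-2HG was 2.06 ± 0.21 (SE, 95% interval 1.62 to 2.50), with an edgeR adjusted p of 5.95e-06. Ranked by p, Hspa4l was gene 8 of 10235 in that comparison. With L-2HG the log2 fold change was 0.93 ± 0.22 (0.48 to 1.39), with an adjusted p of 0.0147. That call was lost without control replicate 1 (0.0625) or control replicate 3 (0.0979), while the D-2HG call was kept without any single library.

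Between the compounds Hspa4l was 2.18-fold higher with D-2HG. The log2 difference was 1.12 ± 0.21 (SE), with a 95% interval from 0.68 to 1.57 and an edgeR adjusted p of 0.0182. Only 5 of the 10235 genes were called higher with D-2HG than with L-2HG. The other 4, chosen for mention after their values were seen, were Hmox1, the heme-degrading enzyme, Rgs1, a regulator of G protein signalling, Zfand2a, an arsenite-inducible zinc finger gene, and Esd, an esterase of glutathione metabolism. The Hspa4l call was lost without D-2HG replicate 1 (adjusted p 0.0808), 2 (0.119) or 3 (0.0948), without L-2HG replicate 1 (0.182) or 3 (0.0931), and without D-2HG replicate 3 and L-2HG replicate 2 together (0.0645). The estimated genomic background was 11.6% of the Hspa4l counts in L-2HG replicate 3 and 4.42% or less elsewhere. Over all 21 alternative analyses the log2 difference stayed between 0.95 and 1.26.

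The relatives of Hspa4l were more abundant and less uniform. Hspa4 had 233, 934 and 872 CPM in control replicates 1 to 3, 814 to 914 with D-2HG and 577 to 809 with L-2HG. It was not called in any comparison, with a log2 fold change of 0.34 with D-2HG (95% interval -0.44 to 1.12). Hsph1 had 171, 566 and 293 CPM in controls, 908 to 952 with D-2HG and 478 to 563 with L-2HG. It was called higher with D-2HG, with a log2 fold change of 1.45 ± 0.30 (SE) and an edgeR adjusted p of 0.00627. For Hsph1 the D-2HG libraries also lay above all L-2HG libraries, by 0.81 (0.18 to 1.44) on the log2 scale, but this did not pass (edgeR adjusted p 0.526). It passed with limma-voom (0.00966), in a fit of only the 2 groups compared (0.0342) and without control replicate 2 (0.0319). Against control, Hsph1 with L-2HG stood at 0.63 (0.00 to 1.27, adjusted p 0.133), which passed with limma-voom (0.000778), with the replicate number as a block (0.0397) and without control replicate 2 (1.16, 0.000555). The controls of Hspa4 and Hsph1 were thus spread over a wider range than those of Hspa4l, with replicate 1 lowest for both.

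Ratios of counts within a library do not depend on scaling. In controls there were 0.531, 0.516 and 0.523 Hspa4l counts per Nfat5 count. With D-2HG the ratio was 1.58, 1.90 and 1.43, and with L-2HG 0.567, 0.655 and 0.708. The groups did not overlap, and Hspa4l stood higher relative to Nfat5 in every treated library than in any control. The ratio of Hspa4l to Hspa4 was 0.130, 0.0415 and 0.0305 in controls, 0.136 to 0.166 with D-2HG and 0.0878 to 0.0969 with L-2HG. Here the treated groups separated from each other, whereas control replicate 1 lay between them. The ratio of Hspa4l to Hsph1 was 0.177, 0.0684 and 0.0907 in controls, 0.136 to 0.143 with D-2HG and 0.104 to 0.126 with L-2HG. Control replicate 1 exceeded every treated library in that ratio, and the other controls lay below all of them.

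**Figure D2:**
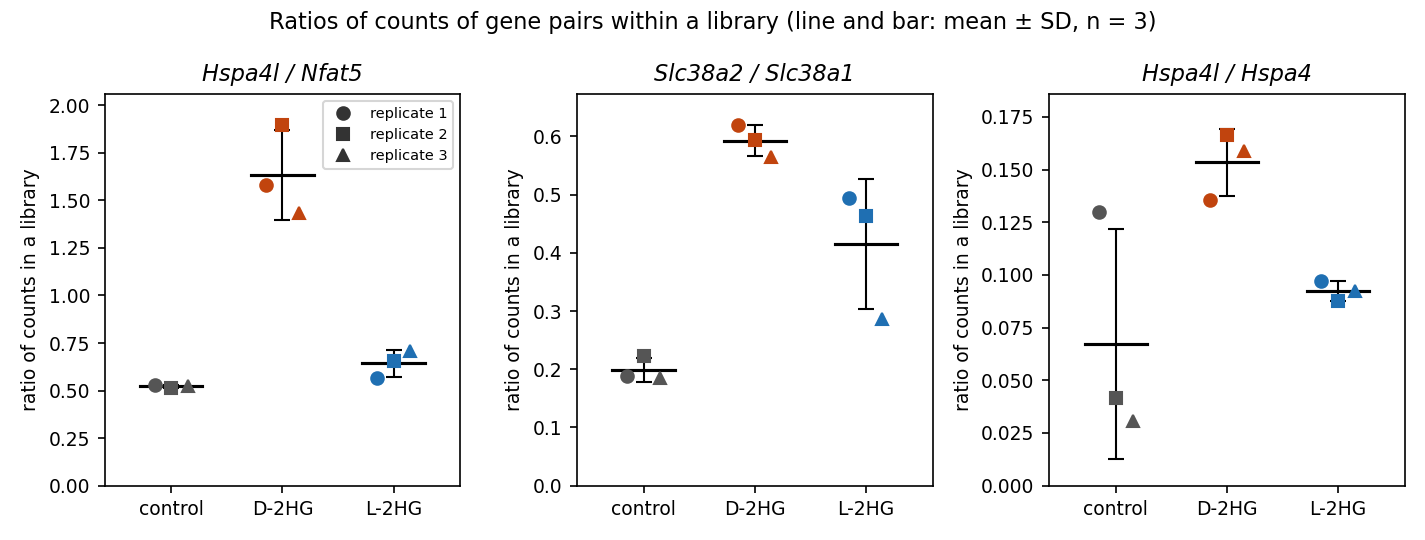
Ratio of the counts of 2 genes in the same library (vertical axis, from 0), by group (horizontal axis), for Hspa4l over Nfat5, Slc38a2 over Slc38a1 and Hspa4l over Hspa4. Symbols mark replicates and lines and bars give the mean and SD of 3 libraries. Hspa4l over Nfat5 stays at 0.516 to 0.531 in controls and reaches 1.43 to 1.90 with D-2HG.

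Slc38a2 (ENSMUSG00000022462) encodes SNAT2, a sodium-coupled importer of neutral amino acids, which cells also accumulate as osmolytes. The gene is on the minus strand of chromosome 15, from 96687392 to 96699730, with 8838 bases of exon, and none of its 50-base stretches occurred in another annotated gene. Control replicates 1 to 3 had 70.8, 78.0 and 70.6 CPM. With D-2HG the libraries had 233, 226 and 264 CPM, and with L-2HG 179, 172 and 92.8 CPM. Every L-2HG library lay above every control and below every D-2HG library, and L-2HG replicate 3 was the one nearest to control. The log2 fold change with D-2HG was 1.72 ± 0.23 (SE, 95% interval 1.25 to 2.19), with an edgeR adjusted p of 0.000100, and by p the gene ranked 24 of 10235. With L-2HG it was 1.00 ± 0.23 (0.53 to 1.48), with an adjusted p of 0.0135. The D-2HG call was kept without any single library, but the L-2HG call was lost without control replicate 1 (0.0564), control replicate 3 (0.0795) or L-2HG replicate 1 (0.0797).

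Although the libraries with D-2HG and L-2HG did not overlap, Slc38a2 did not pass between the compounds. The log2 difference was 0.72 (95% interval 0.25 to 1.18), with an edgeR adjusted p of 0.336. The related transporter Slc38a1, or SNAT1, was not called in any comparison and stood at 369 ± 16.9 CPM in controls, and in treated cells at 408 ± 50.9 (D-2HG) and 353 ± 25.6 (L-2HG) CPM (SD, n = 3). There were 0.186 to 0.223 Slc38a2 counts per Slc38a1 count in controls, 0.565 to 0.619 with D-2HG. With L-2HG there were 0.494, 0.463 and 0.287. The values of this ratio did not overlap between any of the groups, with L-2HG replicate 3 nearest to the controls. Slc38a2 per Nfat5 count was 2.81 to 3.16 with D-2HG, above the controls at 1.04 to 1.39. With L-2HG, at 1.14 to 1.82, it overlapped the controls. Neither ratio was tested.

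Slc6a6 (ENSMUSG00000030096) encodes TauT, the taurine importer. It is on the plus strand of chromosome 6, from 91684053 to 91759066, with 8457 bases of exon, of which 117 (1.38%) lie opposite Gm44981 and cannot be told apart from it if counting ignored strand. Control replicates 1 to 3 had 120, 154 and 119 CPM. The D-2HG libraries had 185, 196 and 233 CPM and the L-2HG libraries 206, 213 and 173 CPM. All 6 treated libraries lay above all controls, and the treated groups overlapped. The log2 fold change was 0.65 ± 0.19 (SE) with D-2HG, at an edgeR adjusted p of 0.0241, and 0.59 ± 0.20 with L-2HG, at 0.0436. Between the compounds it was 0.06, with a 95% interval from -0.35 to 0.46. That interval includes no difference and does not reach the size found for Hspa4l.

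Both Slc6a6 calls depended on single libraries, and DESeq2 did not make the one with L-2HG (adjusted p 0.0513). With D-2HG the call was lost without control replicate 1 (adjusted p 0.0984) or 3 (0.137), or without D-2HG replicate 1 (0.0603), 2 (0.0651) or 3 (0.120). With L-2HG it was lost without control replicate 1 (0.144) or 3 (0.195), L-2HG replicate 1 (0.155) or 2 (0.108), or D-2HG replicate 1 (0.0746), 2 (0.0732) or 3 (0.0600). The log2 fold changes in all 21 alternatives stayed between 0.52 and 0.76 with D-2HG and between 0.33 and 0.72 with L-2HG. The betaine transporter Slc6a12, a classical NFAT5 target in kidney, averaged 0.60 CPM or less in each group and was not tested.

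Slc5a3 (ENSMUSG00000089774) encodes SMIT1, the sodium-coupled importer of myo-inositol. It is on the plus strand of chromosome 16, from 92058322 to 92087473, with 10913 bases of exon, of which 159 (1.46%) also belong to Mrps6 and Gm49711 on the same strand. Controls had 318, 381 and 304 CPM. With D-2HG the libraries had 385, 341 and 745 CPM, and with L-2HG 367, 699 and 334 CPM. The high values came from 1 library of each group, D-2HG replicate 3 and L-2HG replicate 2, and the other 4 treated libraries lay at 334 to 385 CPM, within or just above the control range.

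The log2 fold change of Slc5a3 was 0.55 with D-2HG (95% interval -0.08 to 1.18), at an edgeR adjusted p of 0.180, and 0.46 with L-2HG (-0.17 to 1.10), at 0.272. Without D-2HG replicate 3 the D-2HG value was 0.11, and without L-2HG replicate 2 the L-2HG value was 0.06. Those are the libraries with the highest satellite shares, 17.0% and 24.4%, and the next highest share was 7.98%. The estimated background from genomic DNA, taken from reads in sensory receptor genes, made up 0.32% and 0.42% of the Slc5a3 counts in them. Mrps6, which shares exon bases with Slc5a3, was not called and had means of 412, 332 and 288 CPM in the control, D-2HG and L-2HG groups. The part of the satellite share in the Slc5a3 values was not tested. Between the compounds the log2 difference of Slc5a3 was 0.09, with an interval from -0.54 to 0.72. Its sign turned without D-2HG replicate 3 (-0.32), L-2HG replicate 1 (-0.04) or L-2HG replicate 3 (-0.05).

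**Figure D3:**
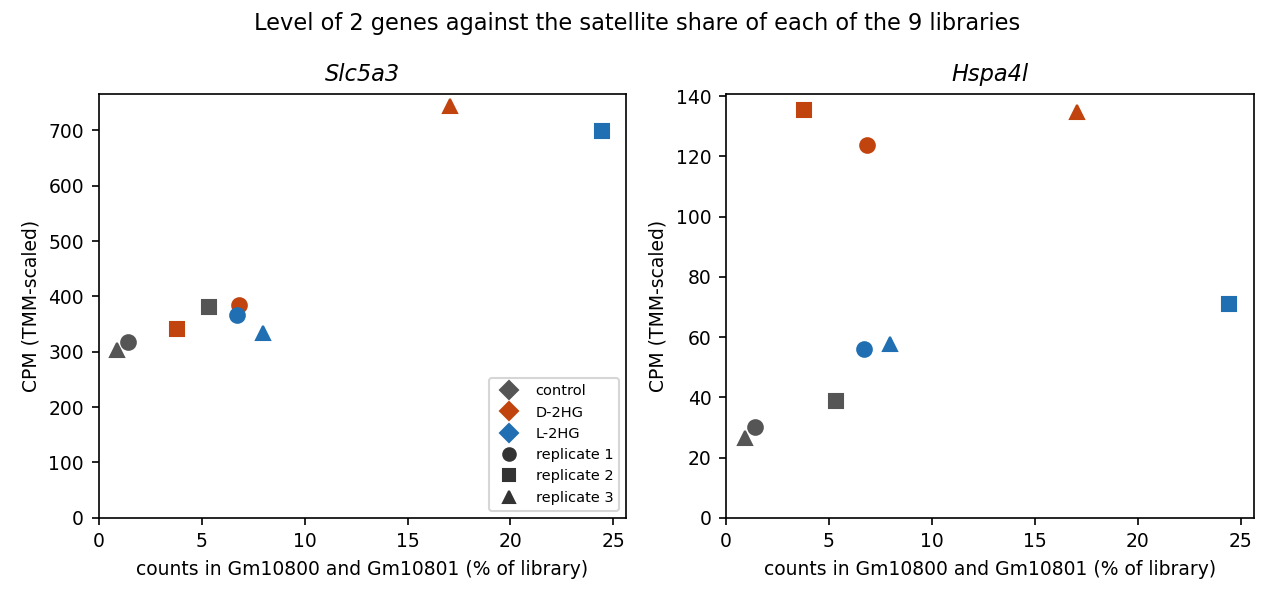
CPM of Slc5a3 and Hspa4l (vertical axes, from 0) against the percentage of the counts of a library that fell in Gm10800 and Gm10801 (horizontal axis), for 9 libraries coloured by group. Slc5a3 is at 699 and 745 CPM in the libraries with shares of 24.4% and 17.0% and at 385 CPM or less elsewhere, whereas Hspa4l is ordered by group.

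Akr1b3 (ENSMUSG00000001642) encodes aldose reductase, which turns glucose into the osmolyte sorbitol. It is on the minus strand of chromosome 6, from 34302434 to 34317478, with 8384 bases of exon. Of its 50-base stretches 13.6% occurred in another annotated gene, 12.8% in Gm38056 on the opposite strand and 8.73% in Gm6644 and 7.60% in Gm6736 on the same strand, so that its counts are less certain than those of the other genes. Control replicates 1 to 3 had 243, 123 and 196 CPM. The D-2HG libraries had 134, 147 and 140 CPM and the L-2HG libraries 116, 105 and 149 CPM. All treated libraries lay below control replicates 1 and 3, and control replicate 2 lay among them. The log2 fold change was -0.42 with D-2HG (95% interval -0.89 to 0.05), at an edgeR adjusted p of 0.170, and -0.59 with L-2HG (-1.07 to -0.11), at 0.0729. Of the 21 alternatives, Akr1b3 passed as lower in 2 with D-2HG and in 6 with L-2HG. Without control replicate 2 both passed, at -0.66 with an adjusted p of 0.00768 for D-2HG and -0.84 with 0.00216 for L-2HG. Limma-voom also called both, at -0.48 (0.00809) and -0.69 (0.00157). The L-2HG value passed with DESeq2 (-0.73, 0.0361) and in edgeR with DESeq2's size factors (-0.72, 0.0427). It also passed in edgeR without a count filter (-0.88, 0.0287) and without L-2HG replicate 3 (-0.80, 0.0333). Between the compounds the log2 difference was 0.17, with an interval from -0.31 to 0.65. Of the related aldo-keto reductases, Akr1b10 averaged 10.3, 6.85 and 8.86 CPM in the control, D-2HG and L-2HG groups and was not called, and Akr1b8 averaged 0.80 CPM or less in each group and was not tested.

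**Figure D4:**
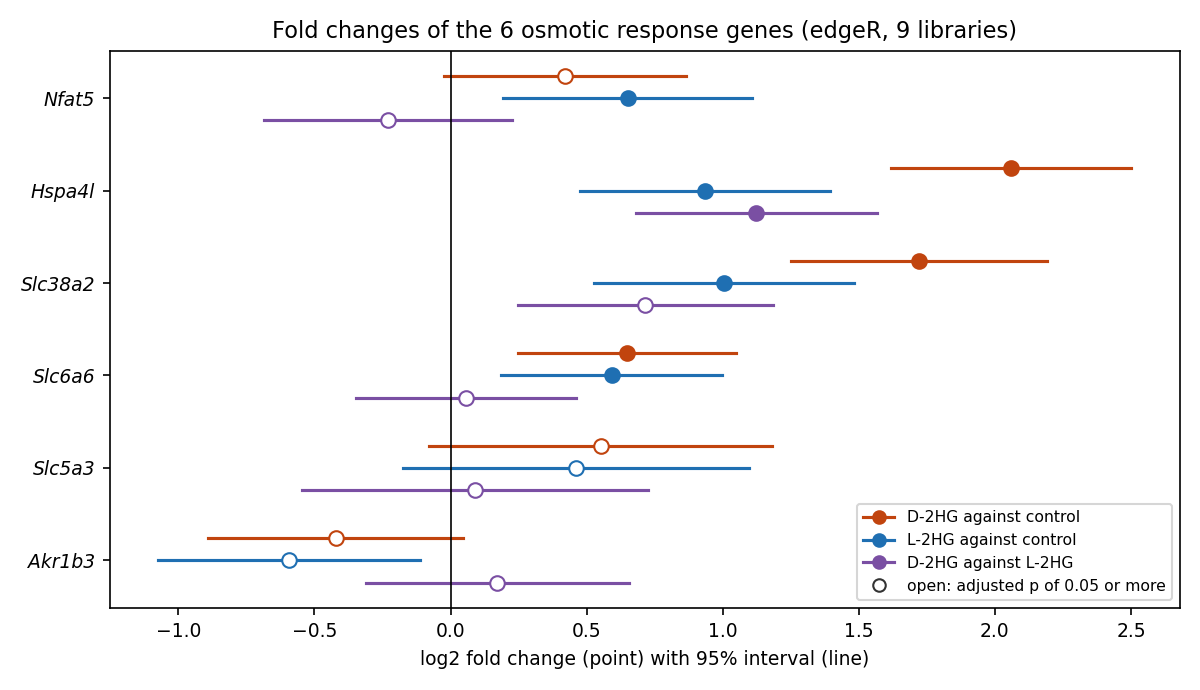
Log2 fold changes (points) with 95% intervals (lines, horizontal axis) of the 6 genes (vertical axis) in the 3 comparisons, from 1 edgeR fit of 9 libraries. Filled points have an adjusted p under 0.05. Hspa4l is the only gene of the 6 with 3 filled points, at 2.06, 0.93 and 1.12.

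Set side by side, the enantiomers at the same dose and time differed by test in Hspa4l alone among the 6 genes. The intervals of the D-2HG against L-2HG difference included 0 for Nfat5, Slc6a6, Slc5a3 and Akr1b3 and lay above 0 for Hspa4l and Slc38a2, before any adjustment for the number of genes. The widest of them, that of Slc5a3, leaves room for a difference of up to 0.72 on the log2 scale. The results for the other genes do not show that the compounds act alike.

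Promoter windows, from 250 bases before to 50 bases after the RefSeq start (GRCm38.p6), were at hand for Nfat5, Hspa4l, Slc38a2 and Slc5a3. Each was searched on both strands for TGGAAA, the core shared by tonicity enhancers and NFAT sites, for a heat shock element of 3 units (GAA, TTC and GAA, each 2 bases apart), and for TGATGNAA, an amino acid response element. None of the 4 windows held any of them. For Hspa4l the 250 bases before the RefSeq start (chr3:40745363-40745612) lie inside the annotated gene, which begins at 40744495. Only the first 19 of these bases come before an annotated exon. The missing motifs and the GC content of that window therefore do not describe sequence upstream of the annotated gene. Of 32851 windows in the table, 21.4% held the first, 0.603% the second and 3.97% the third. The known tonicity enhancers of Slc5a3 lie farther upstream, and the known amino acid response element of Slc38a2 lies in its first intron, outside the window. In the 250 bases before the start, GC content was 71.6% to 74.8% in the 4 windows, against a median of 52.4%, and CG dinucleotides numbered 23 to 34, against a median of 6. The bases outside annotated exons are shown for 2 transporters on either side of the threshold. Slc38a2 was called with both compounds (chr15:96699731-96699978, minus strand) and Slc5a3 with neither (chr16:92058072-92058269, plus strand). Whether the responses of these 2 genes differed was not tested. Capitals mark CG dinucleotides.

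Slc38a2: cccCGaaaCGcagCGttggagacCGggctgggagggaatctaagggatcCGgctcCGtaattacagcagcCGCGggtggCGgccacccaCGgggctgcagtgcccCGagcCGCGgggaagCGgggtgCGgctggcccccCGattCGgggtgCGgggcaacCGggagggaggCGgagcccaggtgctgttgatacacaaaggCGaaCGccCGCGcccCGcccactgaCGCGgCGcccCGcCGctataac
Slc5a3: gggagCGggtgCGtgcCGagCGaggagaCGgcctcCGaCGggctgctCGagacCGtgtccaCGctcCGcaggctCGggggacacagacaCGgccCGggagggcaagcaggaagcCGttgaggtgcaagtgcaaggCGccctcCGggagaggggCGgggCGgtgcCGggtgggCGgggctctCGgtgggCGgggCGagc

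The stretches hold 30 CG dinucleotides in 248 bases for Slc38a2 and 24 in 198 bases for Slc5a3. Both genes thus start in CG-rich sequence without the searched letters, and these windows show no difference of that kind between them.

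A wider list of 43 genes covered the signalling, osmolyte, ion and chaperone arms of the response, and 32 of them passed the count filter. With D-2HG 6 of the 32 were called higher and 0 lower by edgeR (0 lower also at an unadjusted p under 0.05 and by DESeq2, 2 by limma-voom), with a median log2 fold change of 0.19. With L-2HG 3 were called higher and 1 lower by edgeR, with a median of 0.23. There DESeq2 called 2 higher and 4 lower, edgeR with DESeq2's size factors 2 and 2, and limma-voom 13 and 7. Between the compounds 0 of the 32 were called by edgeR and by DESeq2 and 1 by limma-voom, 3 had an unadjusted p under 0.05, and the median was 0.14. These counts stand against the shares of all tested genes given above. The wider list was also chosen with earlier results of these data known, so they are a description and no test of the list.

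Of 12 ion transport and cell volume genes tested, Slc12a7, the potassium-chloride cotransporter KCC4, was called higher with both compounds. It averaged 32.0 ± 4.76 CPM in the control group, 68.2 ± 6.04 in the D-2HG group and 81.1 ± 20.0 in the L-2HG group (SD, n = 3). Its log2 fold changes were 1.11 ± 0.23 (SE, edgeR adjusted p 0.00479) and 1.33 ± 0.23 (0.00386), and both calls were kept in all 21 alternatives. Atp1b3, a beta subunit of the sodium-potassium pump, was called lower with L-2HG, by a log2 fold change of -0.70 (adjusted p 0.0491), from 574 ± 70.4 to 349 ± 128 CPM. That call was lost in 13 of the 21 alternatives, among them leaving out any library except control replicate 2 and L-2HG replicate 3 (adjusted p 0.0532 to 0.154). With D-2HG its value was -0.44 (0.178). Lrrc8d, a subunit of the volume-regulated anion channel, was not called, at 0.04 with D-2HG and -0.10 with L-2HG.

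Among 10 tested signalling genes, Akap13, a guanine nucleotide exchange factor placed upstream of NFAT5 in lymphocytes, was called higher with both compounds. It averaged 248 ± 39.4, 361 ± 29.1 and 418 ± 42.5 CPM (SD, n = 3) in the control, D-2HG and L-2HG groups. Its log2 fold changes were 0.54 (edgeR adjusted p 0.0446) and 0.75 (0.0182). Parp1, a poly(ADP-ribose) polymerase that binds NFAT5, was called with D-2HG at 0.70 (0.0387) and stood at 0.53 with L-2HG (0.114). The Akap13 call with L-2HG was kept in 14 of 21 alternatives, and the D-2HG calls of Akap13 and Parp1 were each kept in 10. Leaving out control replicate 1 or 3 ended all 3 of these calls, with adjusted p from 0.0585 to 0.257. So did leaving out D-2HG replicate 1, 2 or 3 or L-2HG replicate 1 for the D-2HG calls (0.0570 to 0.155), and L-2HG replicate 1 or 2 for the L-2HG call (0.0647 and 0.0511). Map2k3, a kinase of the p38 pathway, was not called, at 0.00 with D-2HG and -0.36 with L-2HG, nor was the chloride-sensing kinase gene Wnk1, at 0.33 and 0.41.

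Of 6 tested genes of osmolyte transport and turnover 2 were called, and both act on glycerophosphocholine, an osmolyte of kidney cells. Pnpla6, the esterase that makes it from phosphatidylcholine, averaged 18.7 ± 8.16, 36.5 ± 4.38 and 32.9 ± 5.06 CPM (SD, n = 3) in the control, D-2HG and L-2HG groups. It was called with D-2HG at a log2 fold change of 1.02 (edgeR adjusted p 0.0165) and with L-2HG at 0.88 (0.0432). Gpcpd1, a phosphodiesterase that breaks it down, averaged 21.0 ± 1.80, 38.0 ± 5.94 and 27.9 ± 2.16 CPM and was called with D-2HG alone, at 0.87 (0.0143), against 0.44 with L-2HG (0.191). The Pnpla6 call with D-2HG was lost without control replicate 1 (0.0943), control replicate 3 (0.112) or D-2HG replicate 3 (0.0692). With L-2HG it was lost on leaving out any library except control replicate 2 and L-2HG replicate 3 (0.0530 to 0.204). The Gpcpd1 call was lost without control replicate 1 (0.0731) or 3 (0.0774) or D-2HG replicate 1 (0.0573) or 2 (0.0738). Isyna1, which makes the inositol backbone, was not called, at -0.33 with D-2HG and -0.31 with L-2HG.

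Of 4 tested chaperones and other induced genes, Hsph1 was called with D-2HG, as given above, and kept that call in all 21 alternatives. Dnajb1, an HSP40 co-chaperone and target of the heat shock factor, was not called, at -0.13 with D-2HG and -0.45 with L-2HG. The inducible HSP70 genes Hspa1a and Hspa1b were at or below 1.03 CPM in every library and were not tested.

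**Figure D5:**
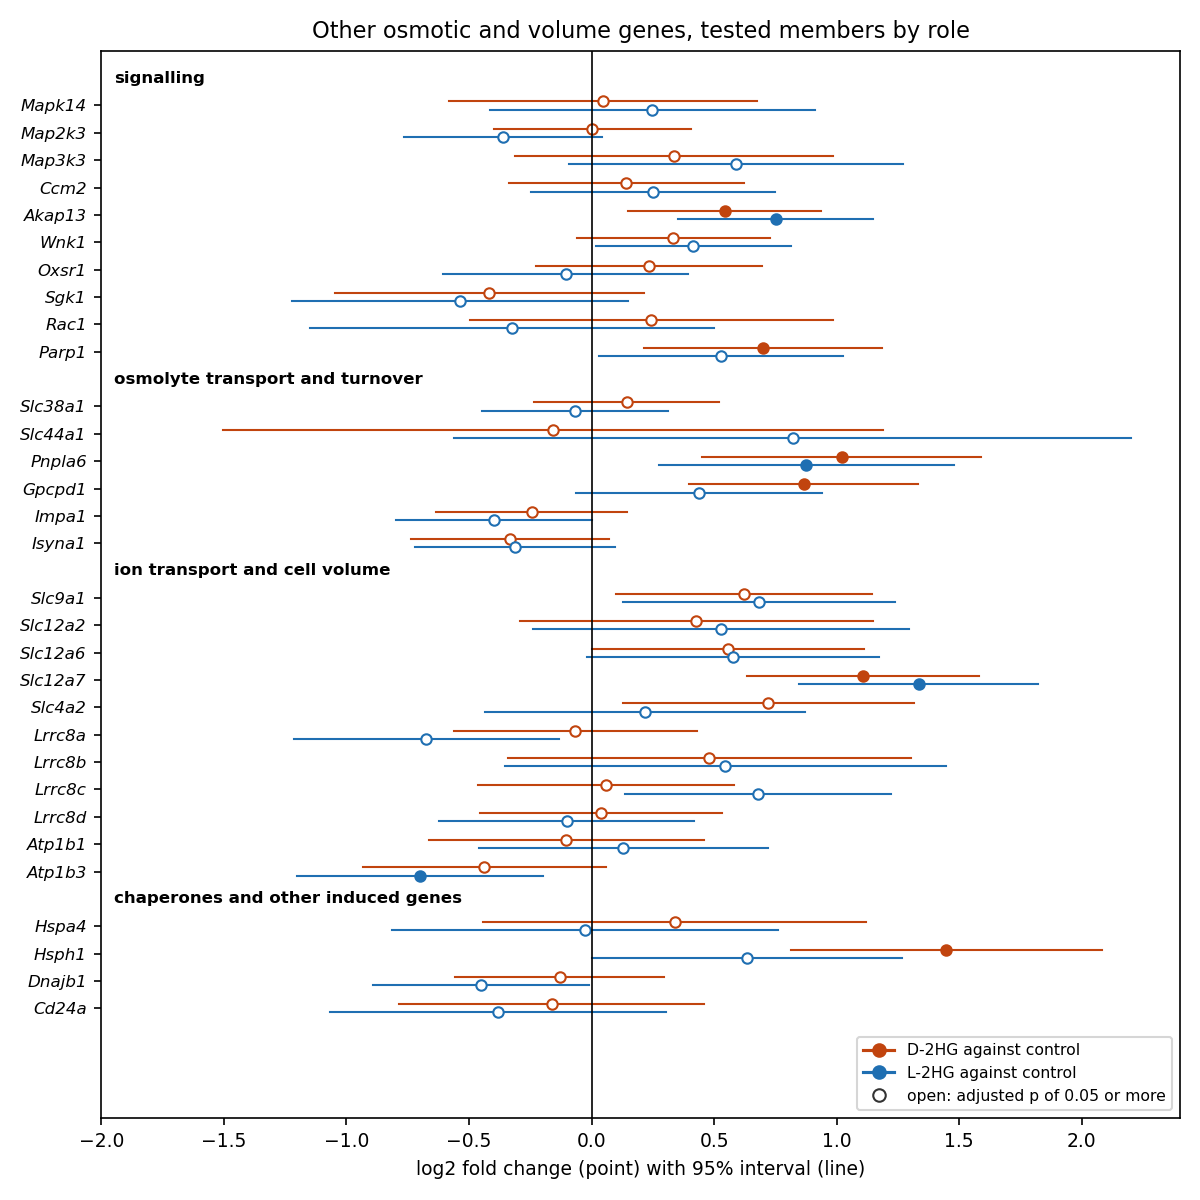
Log2 fold changes (points) with 95% intervals (lines, horizontal axis) against control of 31 tested genes of the wider list (vertical axis, grouped by role), with D-2HG and with L-2HG. Filled points have an adjusted p under 0.05. Filled points for both compounds are seen for Akap13, Pnpla6 and Slc12a7.

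Genes with the most similar profile were sought among 8468 tested genes with a mean of at least 5 CPM, by Pearson correlation of log2 CPM over the 9 libraries. These values are descriptions, since the libraries share the group differences and the differences in depth and satellite share. Nearest to Hspa4l were Golim4, Fbxo28, Fam210a and Gk, with r from 0.96 to 0.97. Gk, glycerol kinase, had means of 10.96, 55.7 and 32.1 CPM in the control, D-2HG and L-2HG groups, and Golim4, a Golgi membrane protein gene, had 11.5, 51.0 and 25.9 CPM. Nearest to Slc38a2 were G3bp2, Kmt5b, Mafg and Rev1 (0.97 to 0.99), all with the D-2HG mean highest and the control mean lowest. Nearest to Slc6a6 were Utp20, Kdm6a, Map3k1 and Tbl1x (0.98 to 0.99), whose D-2HG and L-2HG means were close to each other, as in Utp20 at 101, 167 and 160 CPM. None of the 12 genes appeared beside more than 1 of the 3.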

How the data were processed

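RNA was bead-captured, primed with oligo(dT), amplified by PCR and tagmented, per the labels' protocols. The deposited counts per gene and library came from STAR 2.7.3a and featureCounts on mm10, per the submitters' processing notes. The strand setting and annotation are not given in the sources used here. The other deposited table, titled by the authors as normalised with DESeq2, holds signal values and served only to look up identifiers.

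Counts were fitted in R 4.3.3 with edgeR 4.0.16 (filterByExpr with a minimum count of 10, TMM, robust quasi-likelihood, 1 model of 9 libraries with 6 residual degrees of freedom). Benjamini-Hochberg adjustment ran over 10235 genes. CPM are counts over TMM-scaled totals. Intervals are 95% intervals of a single gene. Within groups, libraries differed beyond counting error (chi-square per degree of freedom 5.83 to 42.4). Precision is limited by depth in L-2HG replicate 2, where Hspa4l had 36 counts.

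The 6 genes, the wider list, the markers and the tests were chosen with earlier results of these data known. Named were all 6 genes, their relatives and, per role and comparison, up to 4 called genes of the wider list and up to 2 others by highest mean, and 1 gene that this takes is not reported here. Background from genomic DNA was estimated from reads per base of exon in 1692 of 1781 sensory receptor genes. The 21 alternatives used limma 3.58.1, DESeq2 1.42.0, other scalings, filters, thinning to the smallest library and left-out libraries. Annotation was GENCODE M21, and promoters were from RefSeq.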

Additional observations from a re-analysis of the deposited data

How the results depend on the processing

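Of 378 fold changes of the 6 genes under an alternative, 317 kept their side of the threshold, 51 fell short, 10 newly passed and 0 called values turned sign. Only values called in the main fit could fall short, and the 378 also include values that were not called there. The share of calls that were lost is therefore larger than 51 of 378. The calls of Hspa4l and Slc38a2 with D-2HG held in all 21 alternatives. Nfat5 with L-2HG held in 6, Slc6a6 with L-2HG in 7 and with D-2HG in 13, Hspa4l with L-2HG in 18 and between the compounds in 14, and Slc38a2 with L-2HG in 17. Akr1b3, not called in the main fit, newly passed as lower in 6 with L-2HG and in 2 with D-2HG. The cause of the changes was not tested, apart from fewer libraries or reads where these were left out. The alternative without the 2 libraries highest in satellite share was chosen after seeing the data.

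In the order of the 6 genes, the wider list and all tested genes, the reported counts were 3, 6 and 2278 with D-2HG, 4, 4 and 1812 with L-2HG, and 1, 0 and 31 between the compounds. Limma-voom with quality weights called 5, 14 and 5615 with D-2HG, 20 of the wider list and 5169 genes with L-2HG, and 1 of the wider list and 158 genes between the compounds, where DESeq2 called 49. Without a count filter the counts were 2 of the wider list and 1341 genes with D-2HG and 1 of the 6 genes with L-2HG, which was Akr1b3, newly called lower (-0.88, edgeR adjusted p 0.0287), while the 4 higher calls were lost. A mean count of at least 50 left 1195 genes with L-2HG. Library totals without TMM left 2 of the 6 with L-2HG. A fit of only the 2 groups compared gave 2, 1 and 427 with L-2HG, and 1 of the wider list between the compounds. Subtracting genomic background gave 2 of the wider list and 680 genes with L-2HG. Thinning to the smallest library gave 3 of the wider list and 702 genes with D-2HG, 2, 2 and 658 with L-2HG, and 0 of the 6 and 10 genes between the compounds. Without both libraries highest in satellite share, the counts were 3 of the wider list and 1169 genes with D-2HG, 2, 1 and 560 with L-2HG, and 0 of the 6 and 13 genes between the compounds.

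Leaving out each replicate in turn gave 2 to 5, 2 to 8 and 384 to 4257 with D-2HG, 0 to 5, 1 to 12 and 65 to 4108 with L-2HG, and 0 to 1, 0 to 1 and 10 to 60 between the compounds. The highest counts came without control replicate 2. The 2 lowest counts of all genes with L-2HG, 177 and 65, came without control replicates 1 and 3. With DESeq2's size factors the median log2 fold change of all genes with L-2HG moved from 0.05 to -0.07.

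The labels state no pairing of replicate numbers, so the numbers were not taken as pairs. Correlations of deviations from the group means were -0.17 to 0.28 for same-numbered libraries and -0.30 to 0.28 for the others. They cannot decide whether libraries were paired, since deviations from a group mean are tied to each other within the group. The replicate block gave 3, 6 and 2314 with D-2HG, 4, 6 and 2284 with L-2HG, and 1, 0 and 35 between the compounds. Depth limits L-2HG replicate 2, where Nfat5 had 55 counts and Hspa4l 36.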
